A study of Mus musculus with 20 samples.

Results

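The interferon regulatory factors (IRFs) and the signal transducers and activators of transcription (STATs) are the transcription factors through which interferon signalling reaches its target genes. The members described here are *Irf1*, *Irf2*, *Irf3*, *Irf5*, *Irf7*, *Irf8*, *Irf9*, *Stat2* and *Stat3*, taken with every probe set that is annotated to 1 of them and to no other gene. This gave 18 probe sets for 9 genes, out of 45101 probe sets and 18194 genes in all, and 0 probe sets that a member shares with another gene. 4 members have 1 probe set, 3 have 2 and 2 have 4. They were read in the livers of 10 p62/*IMP2-2* transgenic (tg) and 10 wildtype (wt) mice, 1 array each. IMP2-2, also called p62, is a splice variant of the RNA-binding protein IMP2, and the series title describes the transgene as liver-specific. All mice were 5 weeks old, of the background strain C57Bl6J/DBA2 and untreated, and total RNA came from snap-frozen liver. The expression of the transgene itself was not analysed here. Values are log2 signals after RMA, a normalization that also summarizes the probes of a probe set. The level of 1 probe set cannot be set against that of another, so each gene is compared with itself between genotypes.

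Type I interferons act through a cell surface receptor with the kinases JAK1 and TYK2, which activate ISGF3, a complex that contains STAT2 and IRF9 and binds the interferon-stimulated response element. Sensors of nucleic acids act further upstream and turn on IRF3 and IRF7, which induce the interferon genes, and *Irf7* is itself a target of ISGF3. IRF1 and IRF8 serve interferon gamma responses, IRF2 opposes IRF1, IRF5 acts behind Toll-like receptors in myeloid cells, and STAT3 carries the IL-6 signal that drives the hepatic acute phase response.

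The arrays carry a liver profile, with a mean of 8 hepatocyte markers between 12.3 and 12.9 on every tg array and 0 of the 8 markers past the test. Array medians lay between 4.46 and 4.55, and precision is limited by the number of mice. Sample names hold 6 numbers that occur in both genotypes, and the sources used here do not say what they mean. 2 pairs of wt arrays were almost the same, wt_1407_2 with wt_1420_6 and wt_1407_5 with wt_1420_7 (SD of their difference across the array 0.168 and 0.172). Each of these pairs therefore enters the wt means and SDs as 1 profile (n = 8), while limma, medians and ranges used all arrays. The closest arrays of all had opposite labels, the array labelled tg_1386_9 and that labelled wt_1386_4 (SD 0.155).

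3 of the 9 members were higher in tg livers, *Irf7*, *Irf9* and *Stat2*, and 6 did not pass the test. By probe set, 4 of 18 (22.2%) were higher (limma, Benjamini-Hochberg adjusted p under 0.05 over all probe sets), where 1.88% of all probe sets were, and 0 were lower, where 0.663% of all probe sets were. Counted as genes with 1 probe set each, 2.98% of all genes were higher and 0.967% lower. At an unadjusted p under 0.05, 6 of the 18 were higher and 4 lower. The median log2 fold change of the 9 genes was 0.08, beside -0.02 over all genes. 16 of the 18 probe sets had a mean above 4.53, the median of all probe set means. Those under it were 1438721_a_at of *Irf3* and 1424272_at of *Stat3*.

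**Figure D1:**
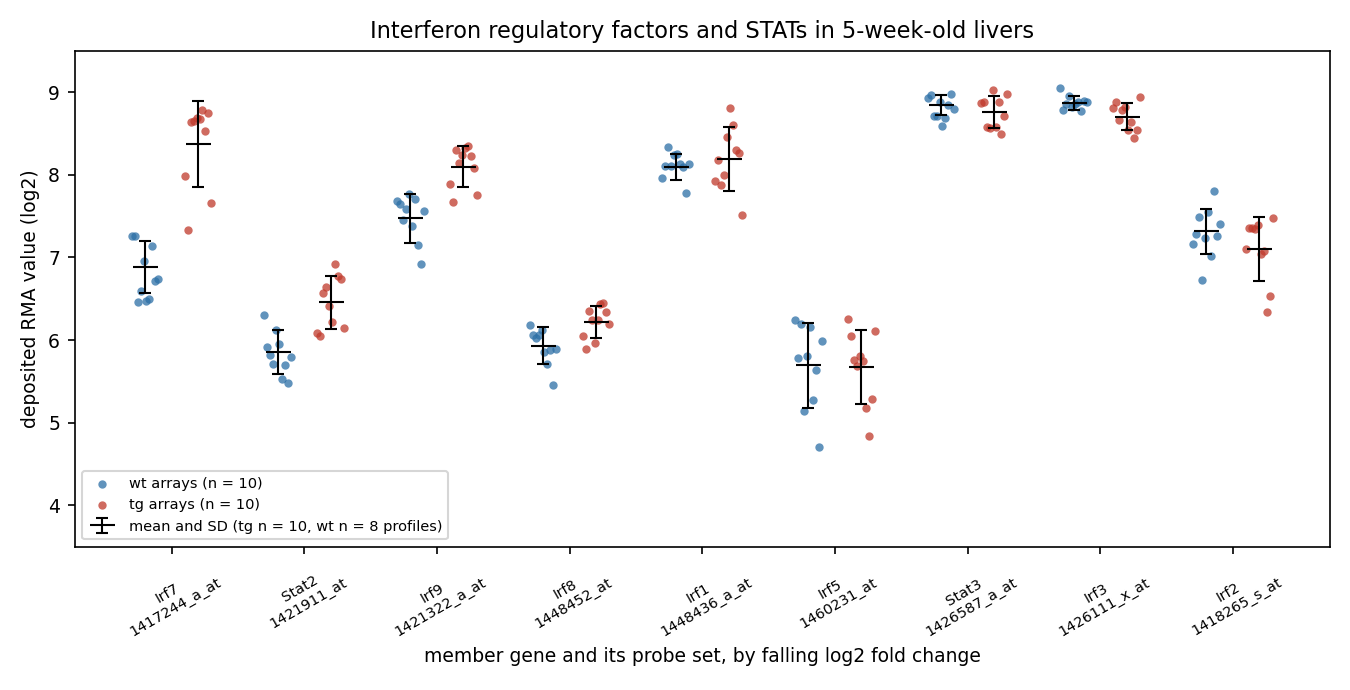
Deposited log2 values of the probe set that stands for each member (the one with the highest mean), for 10 wt arrays in blue and 10 tg arrays in red, with the mean and SD in black (wt over 8 profiles). The *Irf7* values of tg livers, 7.33 to 8.79, lie above all wt values, 6.46 to 7.26, while the genotypes overlap in every other gene shown.

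To show where the regulatory sequences of the members carry letters that these factors bind, the RefSeq promoter windows of GRCm38.p6 (250 bases before to 50 after each start) were searched on both strands for GAAANNGAAA, the core of the interferon-stimulated response element, and for TTCNNNGAA, the core of the gamma-activated sequence bound by STAT dimers. All 9 members matched a window, with 12 windows between them. GAAANNGAAA was found in 2 of these, of *Irf2* and *Stat2*, and in 3.44% of all 32851 windows. TTCNNNGAA was found in 3, of *Irf1*, *Irf2* and *Irf8*, and in 8.3% of all windows. The stretches with a match are printed along the strand of the gene, with the matches in capitals. None of the matches overlap.
Irf1, chr11:53769899-53769957, plus strand: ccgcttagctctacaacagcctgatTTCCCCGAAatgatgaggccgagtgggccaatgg
Irf2, chr8:46739495-46739554, plus strand: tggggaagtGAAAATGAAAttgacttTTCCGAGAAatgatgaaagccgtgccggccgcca
Irf8, chr8:120736162-120736238, plus strand: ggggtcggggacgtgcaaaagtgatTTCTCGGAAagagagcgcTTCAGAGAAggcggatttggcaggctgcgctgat
Stat2, chr10:128270251-128270310, plus strand: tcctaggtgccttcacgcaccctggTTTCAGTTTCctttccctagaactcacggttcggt
In the *Irf1* stretch the match begins 90 bases before the start. The *Irf2* stretch holds both kinds, 241 and 224 bases before the start. The *Irf8* stretch holds 2 matches of the second kind, 171 and 153 bases before the start. In *Stat2* the capitals are the response element core read on the opposite strand, 222 bases before the start. *Stat2* was higher in tg livers and *Irf1*, *Irf2* and *Irf8* did not pass. The windows of *Irf7* and *Irf9*, both higher in tg livers, hold neither run of letters, nor do those of *Irf3*, *Irf5* and *Stat3*. A match or its absence is a description of these letters in these windows.

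*Irf7*, the factor that amplifies type I interferon production, changed more than any other member. Its probe set 1417244_a_at read 7.33 at the lowest, 8.64 at the median and 8.79 at the highest among tg livers, and 6.46, 6.73 and 7.26 among wt livers. Every tg array lay above every wt array, which holds for 32 probe sets of the whole array (0.071%). The tg mean was 8.37 ± 0.52 (SD, n = 10) and the wt mean 6.89 ± 0.32 (SD, n = 8). limma gave a log2 fold change of 1.56 (SE 0.178, 95% interval 1.19 to 1.93, adjusted p = 2.76e-04), which is 2.95-fold (2.28 to 3.81). An exact permutation test over all 43758 divisions of 10 tg and 8 wt profiles, two-sided, gave p = 6.86e-05. Here and below this test treats the profiles as independent, although arrays that share a number in their names can resemble each other. Within tg livers 7 arrays lay together, from 8.53 for tg_1423_2-8_1 to 8.79 for tg_1420_4. The other 3, tg_1386_9, tg_14231_6 and tg_1371_2, read 7.33, 7.66 and 7.98.

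*Stat2* and *Irf9* encode subunits of ISGF3, and both rose by less than *Irf7*. *Irf9* (1421322_a_at) read 7.67, 8.19 and 8.34 at the lowest, median and highest in tg livers and 6.92, 7.58 and 7.77 in wt livers. 8 of 10 tg arrays lay above the highest wt array, so the genotypes overlapped in the lower part of the tg range. The tg mean was 8.10 ± 0.24 (SD, n = 10) against 7.47 ± 0.30 (SD, n = 8), and the log2 fold change 0.61 (SE 0.109, 95% interval 0.39 to 0.84, adjusted p = 0.00581 in limma). This corresponds to 1.53-fold (1.31 to 1.79), and the exact permutation test gave p = 2.06e-04.

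*Stat2* has a pair of probe sets that gave the same picture. 1421911_at read 6.05, 6.49 and 6.92 at the lowest, median and highest in tg livers and 5.48, 5.81 and 6.31 in wt livers, and 1450403_at read 5.81, 6.27 and 6.90 against 5.36, 5.73 and 5.98. On the first, 6 of 10 tg arrays lay above all wt arrays, and on the second 8 of 10. The log2 fold change was 0.62 (SE 0.120, adjusted p = 0.0112 in limma) for the first and 0.61 (SE 0.127, adjusted p = 0.0159) for the second, or 1.54-fold (1.29 to 1.83) and 1.53-fold (1.27 to 1.84). The exact permutation test gave p = 9.83e-04 and p = 6.86e-04.

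The calls of *Irf9* and *Stat2* depend on the 4 livers named tg_1423_2-8 and wt_1423_2-8, that of *Irf7* does not. When these 4 were left out the adjusted p was 0.0207 for *Irf7*, 0.0573 for *Irf9* and 0.130 and 0.147 for the probe sets of *Stat2*, with log2 fold changes of 1.52, 0.49, 0.48 and 0.44. With 3 tg arrays left out (tg_1420_4, tg_1423_2-8_1, tg_1423_2-8_4) it was 0.00572 for *Irf7*, 0.0514 for *Irf9* and 0.0853 and 0.0973 for *Stat2*. No wt array was left out with them, and they held the 3 highest tg values of *Stat2* on 1421911_at (6.92, 6.77 and 6.74). Leaving them out lowers the difference on that probe set by construction. In the same settings the calls over all probe sets fell from 850 higher and 299 lower to 69 and 5, and to 158 and 8. With the near-identical wt arrays averaged all 4 probe sets still passed (adjusted p = 0.00324, 0.0228, 0.0458 and 0.0477), while the calls over all probe sets were 245 and 31.

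**Figure D2:**
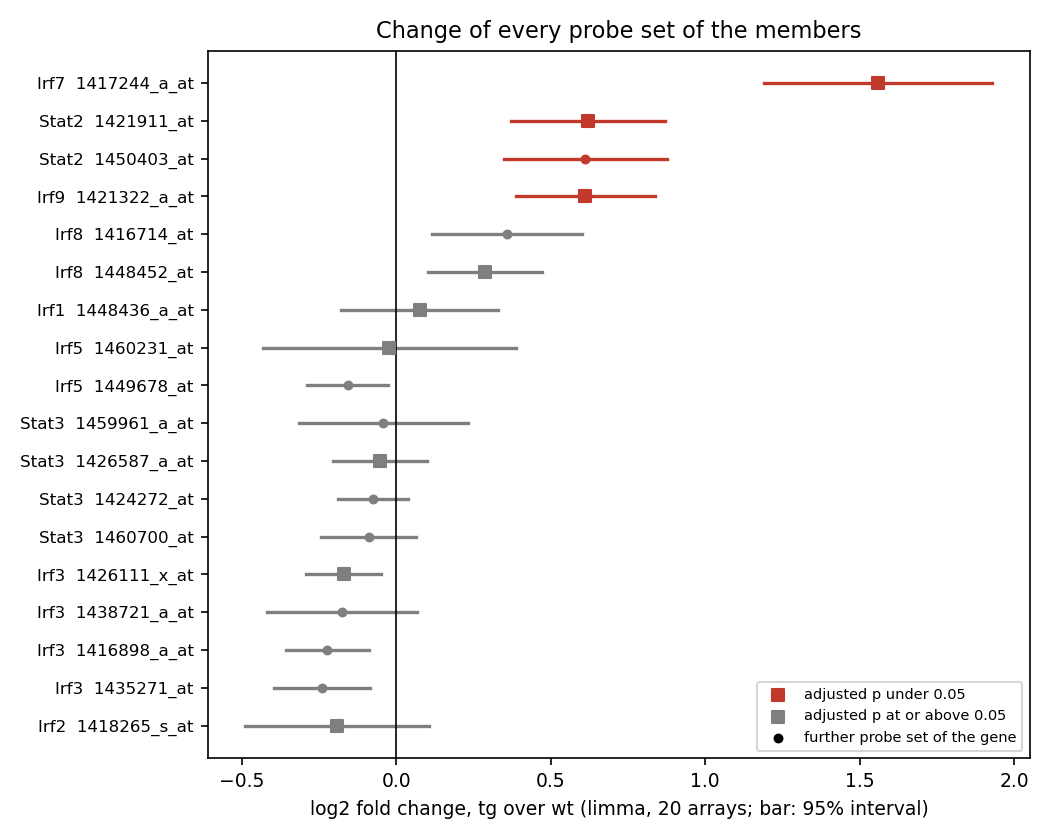
Log2 fold change of each of the 18 probe sets with its 95% interval from limma over 20 arrays, squares for the probe set that stands for a gene and circles for its further probe sets. *Irf7* lies at 1.56, the probe sets of *Stat2* and *Irf9* at 0.61 to 0.62, all in red for an adjusted p under 0.05, and the 14 others are grey, with those of *Irf3* at -0.24 to -0.17.

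*Irf8*, which directs the development of macrophages and dendritic cells, came next and did not pass. On 1448452_at tg livers read 5.90, 6.24 and 6.45 at the lowest, median and highest and wt livers 5.45, 5.96 and 6.19, and on 1416714_at 4.70, 5.08 and 5.78 against 4.55, 4.76 and 5.23. 9 of 10 tg arrays lay above the wt median on either probe set, and 7 and 4 lay above all wt arrays. The log2 fold change was 0.29 (SE 0.0883, adjusted p = 0.0775) and 0.36 (SE 0.117, adjusted p = 0.0909). The exact permutation test, which is not adjusted over the members, gave p = 0.00841 and p = 0.0290. The limma call changed with single arrays. Without tg_1386_9 the adjusted p of 1448452_at was 0.0348, and without wt_1386_4 as well it was 0.0401. Without tg_14231_6 that of 1416714_at was 0.0416. Without the tg_1423_2-8 and wt_1423_2-8 arrays the adjusted p was 0.360 for 1448452_at and 0.343 for 1416714_at.

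*Irf3*, the constitutive factor that nucleic acid sensors activate by phosphorylation, had 4 probe sets with a negative log2 fold change. They were -0.17 for 1426111_x_at (adjusted p = 0.110), -0.22 for 1416898_a_at (0.0636), -0.24 for 1435271_at (0.0799) and -0.18 for 1438721_a_at (0.414), and 3 of them had an unadjusted p under 0.05. In the same order the exact permutation test, not adjusted over the members, gave p = 0.0195, 0.00644, 0.00171 and 0.165. Under the wt median lay 8, 9, 10 and 7 of 10 tg arrays. On 1416898_a_at tg livers read 6.39, 6.72 and 6.99 at the lowest, median and highest and wt livers 6.83, 6.90 and 7.0. 8 of 10 tg arrays were under the lowest wt array on this probe set, against 5, 2 and 3 on 1426111_x_at, 1435271_at and 1438721_a_at. With the label number as replicate block 1416898_a_at passed (log2 fold change -0.22, adjusted p = 0.0383), and the other 3 did not. It also passed after a renewed quantile normalization (adjusted p = 0.0383) and among probe sets above the median mean (0.0449), but not without the tg_1423_2-8 and wt_1423_2-8 arrays (0.283) or with the near-identical wt arrays averaged (0.122). The call also changed with single arrays: 1416898_a_at passed without tg_1386_9 (0.0423), tg_1407_9 (0.0287) or tg_14231_6 (0.0400), and 1435271_at without tg_1386_9 (0.0437) or wt_1420_7 (0.0489).

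*Irf2*, the antagonist of IRF1, was not called either. Its probe set 1418265_s_at read 6.33, 7.22 and 7.48 in tg and 6.73, 7.27 and 7.81 in wt livers, with a log2 fold change of -0.19 (SE 0.143, 95% interval -0.49 to 0.11, adjusted p = 0.472). The lowest tg values were those of tg_1423_2-8_1 and tg_1423_2-8_4, 6.33 and 6.53, and without the tg_1423_2-8 and wt_1423_2-8 arrays the log2 fold change was 0.04.

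*Irf1*, an activator that interferon gamma induces, changed by 0.08 on the log2 scale (SE 0.122, adjusted p = 0.762), with a 95% interval of 0.884-fold to 1.26-fold. Tg livers read 7.51, 8.22 and 8.81 on its probe set 1448436_a_at and wt livers 7.78, 8.12 and 8.34. The tg livers spread more widely than the wt livers (SD 0.38 and 0.16), with 3 tg arrays above and 1 below the wt range. *Irf5* spread widely in both genotypes on 1460231_at (tg 4.84 to 6.25, wt 4.71 to 6.24), so that a log2 fold change of -0.02 had a 95% interval of -0.43 to 0.39. On its other probe set 1449678_at it was -0.16 (SE 0.0630, adjusted p = 0.163), and -0.20 without tg_14231_6, where it passed (adjusted p = 0.0416).

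*Stat3*, which IL-6 activates in hepatocytes, gave 4 log2 fold changes near 0. These were -0.05 (1426587_a_at, 95% interval -0.20 to 0.10), -0.09 (1460700_at, -0.24 to 0.06), -0.07 (1424272_at, -0.19 to 0.04) and -0.04 (1459961_a_at, -0.32 to 0.23), with adjusted p values of 0.468 to 0.890. On 1426587_a_at tg livers read 8.49, 8.79 and 9.03 and wt livers 8.58, 8.82 and 8.97, so both ranges nearly coincide. A p that misses the threshold does not show that *Stat3* was the same in both genotypes. The intervals limit the change on 1426587_a_at to between 0.868-fold and 1.07-fold.

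The order of change was tested between neighbours, as the difference between members within each array and with 8 pairs adjusted together. The change of *Irf7* exceeded that of *Stat2* by 0.88 log2 units (SE 0.151, exact permutation test, adjusted p = 9.14e-04). That of *Irf9* exceeded that of *Irf8* by 0.34 (SE 0.0847, exact permutation test, adjusted p = 0.00338). Between *Stat2* and *Irf9* the difference was -0.02 over the 18 profiles (SE 0.108, adjusted p = 0.820), and the remaining pairs, from *Irf8* with *Irf1* down to *Irf3* with *Irf2*, did not pass (adjusted p 0.491 to 0.820). Both differences that passed also did so without the tg_1423_2-8 and wt_1423_2-8 arrays (0.99 and 0.31, adjusted p = 0.00799 and 0.0293). The order was taken from the same values, so these p values describe these livers and are no independent test of it.

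The 6 label numbers, each with 1 to 3 arrays a genotype, were read on the probe set that stands for each gene. On these, *Irf7* and *Irf9* were higher in tg livers in 6 of 6 numbers. The size varied from 0.07 to 2.12 for *Irf7* and from 0.02 to 1.12 for *Irf9*. The smallest of both was the difference between tg_1386_9 and wt_1386_4, the closest arrays of all. *Stat2* was higher in 5 of 6 numbers (-0.22 to 1.16), with tg_1371_2 under wt_1371_4. *Irf8* was higher in 4 of 6 (-0.17 to 0.73), with tg_1371_2 and tg_1386_9 under the wt arrays of their numbers. On its other probe set, 1416714_at, tg_14231_6 was under wt_14231_2 too (4.70 and 4.78). *Irf1* and *Irf2* were split evenly, 3 higher and 3 lower, and ranged from -0.62 to 0.41 and from -1.10 to 0.24. *Irf3* and *Stat3* were lower in 4 of 6 numbers (-0.34 to 0.09 and -0.31 to 0.18), and *Irf5* was higher in 4 of 6 (-0.17 to 0.27).

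**Figure D3:**
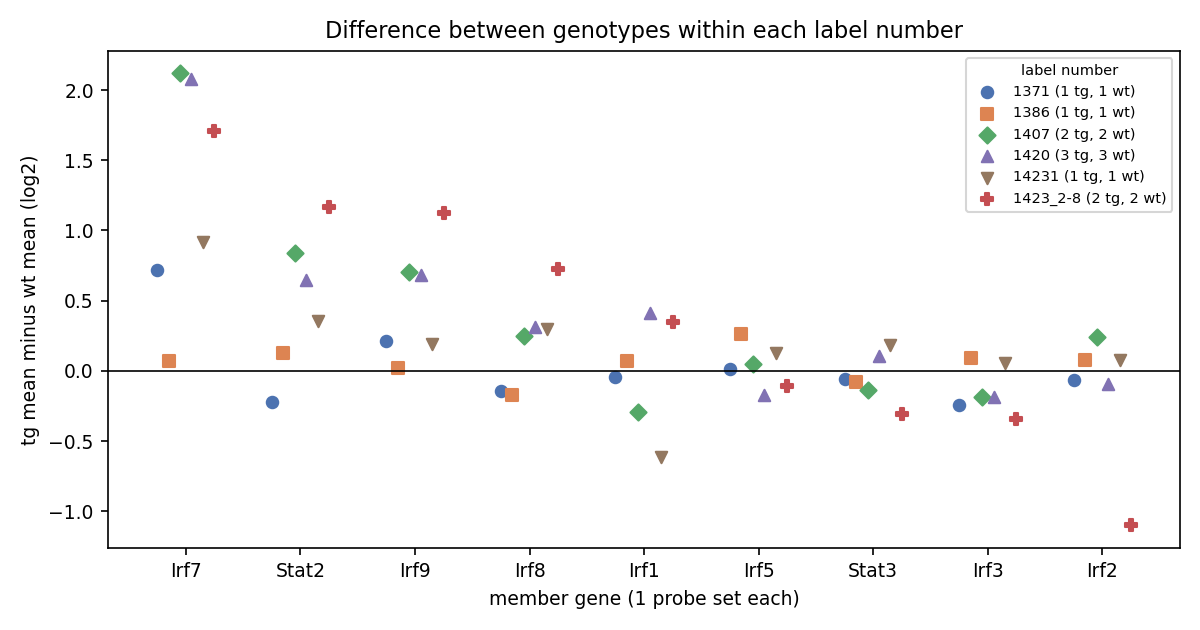
Tg mean minus wt mean on the log2 scale for each member (1 probe set a gene) within each of the 6 label numbers, 1 symbol a number. All 6 symbols of *Irf7* (0.07 to 2.12) and *Irf9* (0.02 to 1.12) lie above 0, and the lowest symbol of all is that of *Irf2* between tg_1423_2-8 and wt_1423_2-8, at -1.10.

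The levels of the members were also set against each other from liver to liver. After the mean of each genotype was taken away, 5 of 36 pairs of members were correlated over 18 profiles (100000 permutations, adjusted over the 36 pairs), all of them among *Irf7*, *Irf8*, *Irf9* and *Stat2*. *Irf8* and *Stat2* gave r = 0.824 (rho = 0.864, adjusted permutation p = 7.20e-04 and 3.60e-04), and 0.799 without the 2 profiles farthest from the median of *Irf8*. For *Irf8* with *Irf9* r was 0.747 (rho = 0.728, adjusted permutation p = 0.0108 and 0.0152) and 0.487 without 2 profiles. *Irf7* with *Stat2* had r = 0.690 (rho = 0.709, adjusted permutation p = 0.0163 and 0.0152) and 0.596 without 2 profiles. *Irf9* with *Stat2* had r = 0.682 (rho = 0.641, adjusted permutation p = 0.0178 and 0.0384) and 0.551. *Irf7* with *Irf9* had r = 0.631 (rho = 0.641, adjusted permutation p = 0.0384 for both) and 0.407 without the 2 profiles farthest from the median of *Irf7*. *Irf8* did not pass between genotypes, yet it followed *Stat2* in both: r was 0.796 in 10 tg and 0.885 in 8 wt profiles. *Irf7* with *Irf9* gave 0.937 in tg but only 0.199 in wt profiles. *Irf7* with *Stat2* gave 0.764 and 0.532 in tg and wt, *Irf8* with *Irf9* 0.616 and 0.863, and *Irf9* with *Stat2* 0.682 and 0.707. Without tg_1386_9 and wt_1386_4, r was 0.497 for *Irf7* with *Irf9* and 0.628 to 0.799 for the others. In the 14 profiles other than tg_1423_2-8 and wt_1423_2-8, r of the 5 pairs was 0.622 to 0.910. The permutations treat the profiles as independent, although arrays of a label number can resemble each other, so these p values may be too small. With the label number taken away as well as the genotype, over 20 arrays and with no test, r of the 5 pairs was 0.646 to 0.817. These 20 arrays count the near-identical wt arrays separately. Single label numbers hold too few arrays for a value of their own.

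**Figure D4:**
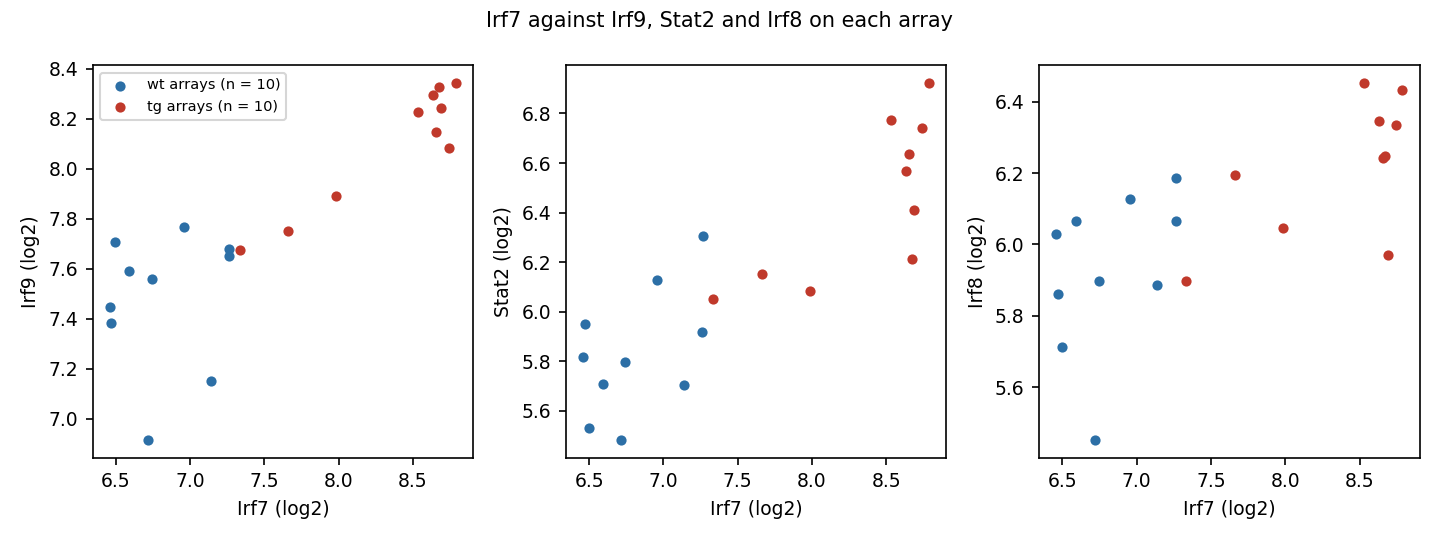
*Irf9*, *Stat2* and *Irf8* (y axes, log2) against *Irf7* (x axis, log2) on each of 20 arrays, wt in blue and tg in red. The 3 tg arrays with *Irf7* between 7.33 and 7.98 lie next to the wt arrays, and the 7 tg arrays with *Irf7* from 8.53 upward hold the highest values of *Irf9*, from 8.08 to 8.34.

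Among 11774 genes above the median mean, the 5 whose pattern over the 18 profiles was most like that of *Irf7* after removal of the genotype means were *Oas1a* (r = 0.940, rho = 0.891), *Ifitm3* (0.892, 0.915), *Herc6* (0.887, 0.783), *Ifi27l2a* (0.883, 0.825) and *Mpeg1* (0.880, 0.732). *Stat2* ranked 95, *Irf9* 192 and *Irf8* 482 by the same measure. *Irf3* was among the last (rank 11570, r = -0.548). These ranks describe 18 profiles that share label numbers, and were not tested.

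The genes around the members divided by role. Of 9 measured interferon ligands 0 passed in either direction, their median log2 fold change was -0.14, and 7 had means under the median of all probe sets, *Ifnb1* and *Ifng* among them. Of 9 receptors and kinases 2 were higher, *Ifngr1* (0.60, adjusted p = 0.0206), a chain of the interferon gamma receptor, and *Il10rb* (0.42, adjusted p = 0.0354), a chain shared with the interferon lambda receptor. Both calls were lost with the near-identical wt arrays averaged (0.0696 and 0.0884) and without the tg_1423_2-8 and wt_1423_2-8 arrays (0.138 and 0.221). *Ifnar1* (0.07), *Ifnar2* (-0.29), *Jak1* (0.16) and *Tyk2* (0.07) did not pass. Of 14 adaptors and kinases upstream of IRF3, IRF5 and IRF7, 0 passed. With the label number as replicate block 1 did, *Ikbke*, a kinase of IRF3 and IRF7 (0.30, adjusted p = 0.0446). The IRF and STAT genes outside the members were measured for 5, with log2 fold changes of -0.0039 for *Irf4*, 0.01 for *Stat4*, -0.13 for *Stat5a*, 0.08 for *Stat5b* and 0.12 for *Stat6*, and 0 passed. The gene counts read against 2.98% higher and 0.967% lower over all genes.

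Of 17 negative regulators 2 were higher, *Usp18* (1.70, adjusted p = 2.85e-04), which binds the type I interferon receptor and limits its signal, and *Trim21* (0.55, adjusted p = 0.0124), a ubiquitin ligase for IRF proteins. *Socs1* (0.12) and *Socs3* (-0.62, SE 0.347) did not pass. Of 12 partner factors 3 were higher, *Nmi* (0.59, adjusted p = 0.00153) and *Ifi35* (0.55, adjusted p = 0.00881), which bind each other, and *Il6st* (0.31, adjusted p = 0.0270), the gp130 receptor chain upstream of STAT3. The call of *Il6st* was lost with the near-identical wt arrays averaged (0.0749), and those of *Il6st* (0.159), *Ifi35* (0.105) and *Trim21* (0.122) without the tg_1423_2-8 and wt_1423_2-8 arrays. The partners of IRF8 did not pass, with 0.08 for *Spi1*, -0.02 for *Batf* and 0.10 for *Batf3*.

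The target genes were read in lists named after the factor they are usually assigned to. Binding was not measured, so a list does not show which factor acted on its genes. Of 21 target genes of the ISGF3 type 20 were higher, with a median of 1.18. *Ifit1* (2.49), *Rsad2* (2.43), *Oas1a* (2.32) and *Ifit3* (2.12), all antiviral effectors, had the largest change. Of 18 target genes of the IRF1 and gamma-activated type 15 were higher, with a median of 0.88, led by *Gbp3* (2.16), *Cxcl10* (1.87), *Gbp7* (1.31) and *Tap1* (1.15). These include guanylate-binding proteins, a chemokine and a peptide transporter for MHC class I. *Irf1* itself was at 0.08. Of 20 acute phase targets of STAT3 only *Hpx*, the heme carrier hemopexin, passed (0.23, adjusted p = 0.0144), and the median was 0.09. *Lcn2* had a larger value that did not pass (1.61, SE 0.546, adjusted p = 0.103). With the tg_1423_2-8 and wt_1423_2-8 livers left out 11 of the 21 and 4 of the 18 were higher, and 0 of the 20 acute phase genes. Whether the target lists differed from each other was not tested.

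**Figure D5:**
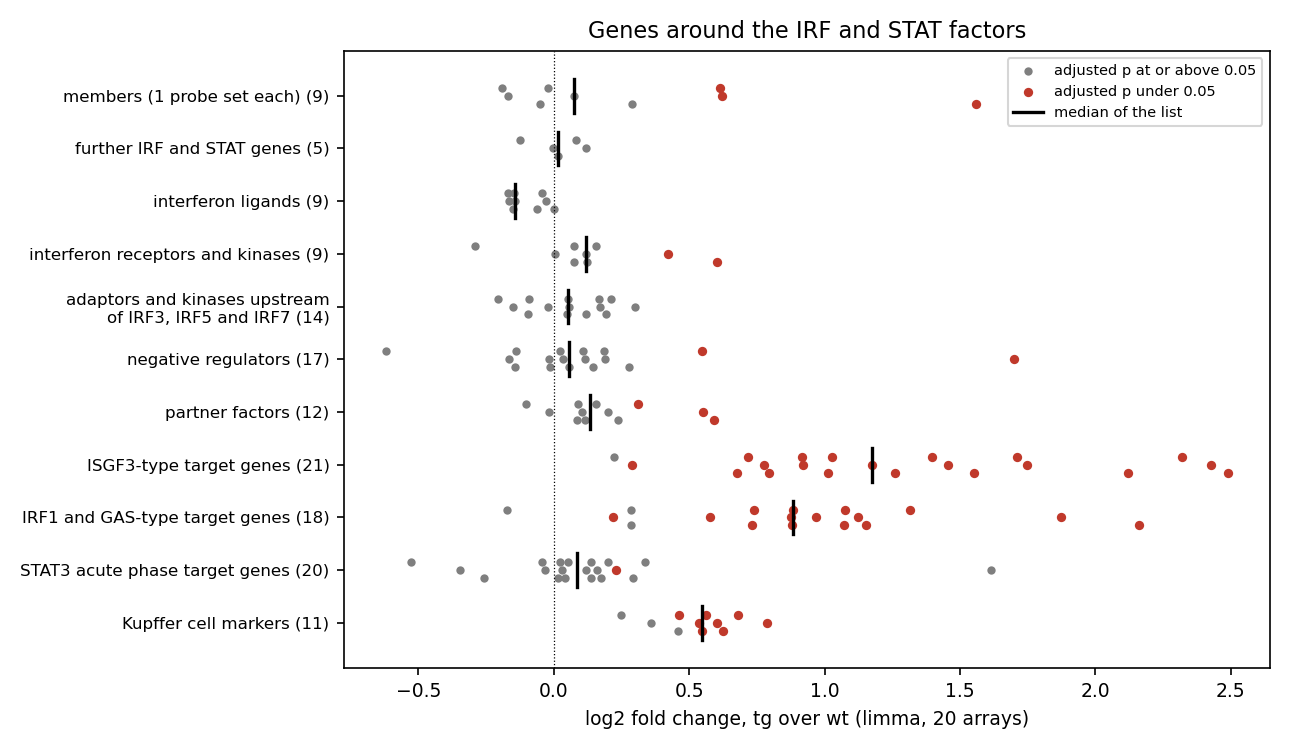
Log2 fold change of single genes (1 probe set each, limma over 20 arrays) for the 9 members, 9 lists of genes around them and 11 Kupffer cell markers, red for an adjusted p under 0.05, with the list median as a black bar. The red points gather in the ISGF3-type (median 1.18) and the IRF1 and GAS-type (gamma-activated sequence) lists (0.88) and in the Kupffer cell markers (0.55), while the ligands and the acute phase genes have medians of -0.14 and 0.09.

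*Irf5* and *Irf8* are most abundant in myeloid cells, so markers of the cells a liver contains were read beside them. Of 11 Kupffer cell markers 8 were higher in tg livers, *Cd5l* (0.79), *Cd68* (0.68), *C1qa* (0.63), *Clec4f* (0.60), *C1qb* (0.56), *Vsig4* (0.55), *C1qc* (0.54) and *Marco* (0.46). Their median over the list was 0.55, 0 of 11 lay under the median of all probe sets, and the mean of the 11 markers was 7.77 to 8.56 in tg and 7.43 to 8.07 in wt livers. 8 of 10 tg livers had a mean above all wt livers. In bulk liver RNA more cells of a type and more RNA per cell cannot be told apart. The same mean followed several members over the 18 profiles after removal of the genotype means (9 relations, 100000 permutations). It gave r = 0.806 with *Irf9* (rho = 0.847, adjusted permutation p = 6.30e-04 and 1.80e-04, 0.759 without 2 profiles), 0.660 with *Irf7* (rho = 0.583, 0.00795 and 0.0248, 0.619 without 2) and 0.652 with *Irf1* (rho = 0.60, 0.00795 and 0.0248, 0.533 without 2). For *Stat2* it was 0.566 (rho = 0.560, 0.0273 and 0.0251, 0.480 without 2) and for *Irf8* 0.560 (rho = 0.624, 0.0273 and 0.0248, 0.585 without 2). *Irf2* gave -0.494 (rho = -0.577, adjusted permutation p = 0.0564 and 0.0248, -0.442 without 2), which passed by rho but not by r. *Irf3* (-0.460), *Irf5* (-0.141) and *Stat3* (-0.142) did not pass. These permutations, too, treat profiles of a label number as independent. With the label number taken away as well, over 20 arrays and with no test, r was 0.875 for *Irf9*, 0.673 for *Irf7*, 0.697 for *Irf8*, 0.524 for *Stat2*, 0.511 for *Irf1*, -0.561 for *Irf2* and -0.613 for *Irf3*. Here, too, the near-identical wt arrays count separately. In the 14 profiles other than tg_1423_2-8 and wt_1423_2-8, r was 0.814 for *Irf9*, 0.760 for *Irf7* and 0.423 for *Irf8*. The part of the Kupffer cell markers in the change of *Irf7*, *Irf8*, *Irf9* and *Stat2* was not tested. The difference of the marker mean between genotypes was 0.53 over all arrays and 0.45 with the tg_1423_2-8 and wt_1423_2-8 livers left out, where 0 of the 11 markers passed.

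Markers of other cells were read in the same way. *Plac8* was the 1 of 6 monocyte markers that was higher (0.88, adjusted p = 0.0175) and *Lyve1* the 1 of 7 endothelial markers (0.995, adjusted p = 0.0214). *Ccr9* was the 1 of 6 markers of plasmacytoid dendritic cells that was lower (-0.17, adjusted p = 0.0283). These 3 calls were lost when the tg_1423_2-8 and wt_1423_2-8 arrays were left out (adjusted p = 0.151, 0.153 and 0.105), and those of *Plac8* and *Ccr9* also with the near-identical wt arrays averaged (0.0573 and 0.0665). Of the markers of dendritic cells (8), T and NK cells (10), B cells (5), neutrophils (7), stellate cells (6) and cholangiocytes (5), 0 passed. With the label number as replicate block 1 marker of T and NK cells, *Cd8a* (adjusted p = 0.0452), and 1 of B cells, *Ms4a1* (0.0286), were lower. The means of *Ccr9*, *Cd8a* and *Ms4a1* all lay under the median of all probe sets. Of the 8 dendritic cell markers 3 had means under the median of all probe sets, and the mean of the list was 4.91 to 5.59 in tg and 5.24 to 5.57 in wt livers.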

How the data were processed

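Liver RNA of 10 tg and 10 wt mice was hybridized to Affymetrix Mouse Genome arrays. The authors scanned and normalized the arrays by RMA (version not given in the sources used here), and deposited log2 values, 1 for each of 45101 probe sets and each array. 0 columns had no sample. No raw scan was read. Gene names came from the array annotation (34958 probe sets with 1 symbol, 932 with several, 9211 with none), and where a gene has several probe sets the brightest on average stands for it. The members and all lists were chosen with earlier results of these data known. limma 3.58.1 in R 4.3.3 fitted genotype to all 20 arrays, with Benjamini-Hochberg adjustment over all probe sets and 0.05 as the threshold. The fit was tested on simulated data, drawn independently for each probe set and array. These held no near-identical arrays and no likeness within label numbers, so the simulation does not cover those features. Exact permutation tests, correlations and motif searches used Python 3.11.15 with numpy 2.4.6 and scipy 1.17.1. Arrays were called near-identical at an SD of the difference under 0.2. Named were all probe sets of the members, in each list the genes past the threshold (up to 4 with the largest change), all markers past the threshold, and the 5 genes most like *Irf7*. Other genes named with values that did not pass were chosen after their values were seen. Arrays that share a label number across genotypes were correlated once the genotype means were removed (r = 0.184 to 0.404, and in 5 of 6 numbers no other number gave a higher one), so the number was also fitted as a replicate block. That block counts the near-identical wt arrays, which lie in different numbers, as separate. Alternatives were that block, normalizations, filters, weights, a Wilcoxon test, each array left out in turn and groups of arrays left out. Promoter windows came from RefSeq GRCm38.p6.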

Additional observations from a re-analysis of the deposited data

Results flagged for a closer look

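3 values of 36 groups of arrays lay far from the rest of their group, and chance alone gives about 1 in 20. *Irf5* on 1449678_at was highest in tg_14231_6, with 5.39, where the gap to the next of 10 tg arrays was 0.529 of their whole range. *Irf8* on 1448452_at was lowest in wt_1423_2-8_9, with 5.45 and a gap of 0.591 of the range of 8 wt profiles. *Stat3* on 1424272_at was lowest in tg_1423_2-8_4, with 4.12 and a gap of 0.498 of the range of 10 tg arrays.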

How the results depend on the processing

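Leaving out each of 20 arrays in turn kept all calls of *Irf7*, *Irf9* and *Stat2*, with 4 to 5 member probe sets higher and 0 to 2 lower. Without the tg_1423_2-8 and wt_1423_2-8 arrays, or without tg_1420_4, tg_1423_2-8_1 and tg_1423_2-8_4, 1 was higher, that of *Irf7*. The latter 3 held the highest tg values of *Stat2* on 1421911_at, so leaving them out lowers that difference by construction. Without probe sets whose names end in _a_at, _s_at or _x_at 2 were higher, both of *Stat2*, since *Irf7* and *Irf9* then have none left. 1 was lower, 1416898_a_at of *Irf3*, with the label number as replicate block (fixed or random), after renewed quantile normalization and among probe sets above the median mean. The block changed no other call of a member, while over all probe sets it moved 850 higher and 299 lower to 1634 and 607. It raised the higher counts of upstream adaptors from 0 to 1, negative regulators from 2 to 3, IRF1 and GAS-type targets from 15 to 17, acute phase genes from 1 to 2 and Kupffer cell markers from 8 to 10, and the lower counts of T and NK cell and of B cell markers from 0 to 1. With near-identical wt arrays averaged 18 ISGF3-type targets, 11 IRF1 and GAS-type targets, 2 partner factors and 6 Kupffer cell markers were higher. Higher counts without the tg_1423_2-8 and wt_1423_2-8 arrays were 0 for receptors (also 0 with near-identical wt arrays averaged), 1 each for negative regulators and partner factors, 11 for ISGF3-type, 4 for IRF1 and GAS-type and 0 for acute phase targets. The log2 fold change changed sign where it was near 0. *Irf1* gave -0.0029 with array weights and -0.0097 without the 3 tg arrays, *Irf2* 0.036 without those 4 arrays and 0.0035 without the 3 tg arrays, and *Stat3* 0.013 without the 4 arrays. *Irf5* gave 0.0011 with centred arrays, 0.011 with array weights, 0.22 without the 3 tg arrays, and -0.132 to 0.070 when 1 array was left out. Differences between neighbours, with settings chosen after the data were seen, turned to 0.0077 for *Stat2* with *Irf9* on all 20 arrays. Without the tg_1423_2-8 and wt_1423_2-8 arrays those of *Irf5* with *Stat3* and *Irf3* with *Irf2* turned to -0.021 and -0.151, and without the 3 tg arrays those of *Irf1* with *Irf5* and *Irf3* with *Irf2* to -0.208 and -0.076. None of these passed. Where construction does not show it, the cause was not tested.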
